A study of Mus musculus with 9 samples.

Results

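Transcripts of 8 genes used as markers or effectors of monocytes and macrophages (Ly86, Ctss, F13a1, Mpeg1, Lgals3, Cd68, Adgre1 and Vcam1) were followed across 3 myeloid populations of normal mouse bone marrow. Their probe sets were found by gene symbol in the platform annotation, among those that name exactly 1 gene: 10 of 34945 such probe sets, and 8 of 18193 genes. The genes had been chosen by their measured intensities in the 2 immature populations described below, Mac1+ and Mac1lo cells, so values in the comparison of those 2 are given as a description. All 8 genes had a probe set, and no filter on low values was applied.

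All cells came from C57BL/6 mice, an inbred strain, of either sex and aged 4 to 10 weeks, with no treatment or mutation named in the labels. Neutrophils lacked c-kit and carried Gr1 and Mac1. Mac1+ cells carried c-kit, Gr1 and Mac1. Mac1lo cells carried c-kit and Gr1, with Mac1 low or absent. Both c-kit populations also lacked B220, TER119, CD3, CD4, CD8 and the interleukin-7 receptor, and the labels give them the look of undifferentiated cells or myeloblasts. c-kit is the receptor for stem cell factor on progenitors, Gr1 an antigen of the granulocyte lineage that some antibodies share with the monocyte antigen Ly6C, and Mac1 an integrin whose alpha chain is the product of Itgam. Each population had 3 arrays, which gave 1 intensity per probe set on a linear scale. The labels do not say that arrays of a population came from separate animals, so p-values reflect the spread between arrays, possibly technical, and nothing more, and the small number of arrays limits the precision. In sorted bulk cells, fewer cells of a type and less RNA per cell cannot be told apart.

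Monocytes and neutrophils arise in marrow from shared progenitors. Monocytes and the macrophages derived from them take up particles and break them down in lysosomes, and they hold sets of receptors for microbial products, enzymes, lectins and adhesion molecules for the purpose. Several of these genes are also used by neutrophils, dendritic cells or stromal cells, so none of the 8 marks a single cell type.

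The 8 genes did not share one order of the populations. Ly86, Ctss and F13a1 were highest in Mac1lo cells. Mpeg1, Lgals3, Cd68 and Adgre1 were highest in neutrophils. Vcam1 was highest in Mac1+ cells. What 7 of them had in common was a lower mean in Mac1+ cells than in Mac1lo cells, and Vcam1 ran the other way. A description of all 8 as genes of Mac1lo cells therefore fits 3 of them by highest level, and they are called here the 8 monocyte and macrophage genes.

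Promoter windows were available for 6 of the 8 genes, from 250 bases before to 50 bases after the annotated start, in RefSeq on GRCm38.p6. The windows of the 3 genes highest in Mac1lo cells are printed because these genes carry the largest differences between the c-kit populations, and that of Cd68 because its order of populations differs. The windows of Mpeg1 and Lgals3, whose means have the order of Cd68, are not printed. Letters run 5′ to 3′ on the gene's strand, and capitals mark matches to the 6 motifs searched on both strands.
Ly86, chr13:37345095-37345394, plus strand: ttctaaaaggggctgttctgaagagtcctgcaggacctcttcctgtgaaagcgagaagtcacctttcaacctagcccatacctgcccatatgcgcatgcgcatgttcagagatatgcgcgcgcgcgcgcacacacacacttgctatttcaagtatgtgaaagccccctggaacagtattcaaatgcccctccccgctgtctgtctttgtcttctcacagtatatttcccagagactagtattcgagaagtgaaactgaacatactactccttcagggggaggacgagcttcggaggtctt
Ctss, chr3:95526536-95526835, plus strand: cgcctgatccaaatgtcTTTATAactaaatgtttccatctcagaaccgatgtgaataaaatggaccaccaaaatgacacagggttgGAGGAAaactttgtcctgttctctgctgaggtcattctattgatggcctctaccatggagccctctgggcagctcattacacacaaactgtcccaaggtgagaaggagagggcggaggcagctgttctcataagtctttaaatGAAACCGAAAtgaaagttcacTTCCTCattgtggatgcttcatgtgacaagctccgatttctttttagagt
F13a1, chr13:37050195-37050494, minus strand: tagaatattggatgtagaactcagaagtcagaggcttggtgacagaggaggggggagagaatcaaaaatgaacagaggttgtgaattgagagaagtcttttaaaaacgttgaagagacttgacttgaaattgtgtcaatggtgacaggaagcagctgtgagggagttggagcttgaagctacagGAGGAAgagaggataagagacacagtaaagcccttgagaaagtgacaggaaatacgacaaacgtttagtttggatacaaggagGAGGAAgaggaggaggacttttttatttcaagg
Cd68, chr11:69666121-69666420, minus strand: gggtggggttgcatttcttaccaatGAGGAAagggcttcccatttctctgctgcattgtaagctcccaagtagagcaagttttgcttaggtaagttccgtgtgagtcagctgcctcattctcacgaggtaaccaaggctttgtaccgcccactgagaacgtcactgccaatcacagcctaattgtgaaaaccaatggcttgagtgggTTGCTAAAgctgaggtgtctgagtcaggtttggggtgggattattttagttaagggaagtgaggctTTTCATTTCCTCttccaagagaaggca

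GAGGAA, the core bound by the myeloid factor PU.1, stood in windows of 3 of the 6 genes, Ctss, F13a1 and Cd68, and in 28.3% of 32851 windows of the genome. The interferon response element, GAAA, any pair of bases and GAAA, was present for Ctss, starting 21 bases before the start, and in 3.44% of windows. The composite element of ETS and IRF factors, GGAA, any pair of bases and GAAA, was present for Cd68, where it overlaps a GAGGAA on the same strand, and in 2.72% of windows. TTGCNNAA, part of a C/EBP site, was present for Cd68 and in 10.8% of windows. TATAAA was present for Ctss, on the opposite strand, and in 13.6% of windows. The NF-kB element, GGG, any pair of bases, TT, any base and CC, was in the windows of 0 of the 6 genes and in 4.79% of all windows. The windows of Ly86, Mpeg1 and Lgals3 held none of these motifs. F13a1 has a second window, at chr13:37049164-37049463, which also holds GAGGAA. These are matches of letters only, and genes with a like order of populations did not share them: Ctss and F13a1 had GAGGAA and Ly86 did not. Likewise Cd68 had it, and Mpeg1 and Lgals3 did not.

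The populations were checked on their sorting genes. Kit gave intensities of 94.9 to 331 in neutrophils, 3176 to 3470 in Mac1+ cells and 2998 to 3228 in Mac1lo cells. Itgam gave 2027 to 3675 in neutrophils, 695 to 919.8 in Mac1+ cells and 69.2 to 74.1 in Mac1lo cells. Both genes thus followed the sort. Neutrophil array 1 stood apart from the other two neutrophil arrays on the second principal component, at 64.5 against -23.1 and -37.3. The same array had more signal of early granule genes: Elane, neutrophil elastase, gave 2199, 451 and 208 on neutrophil arrays 1, 2 and 3, and Mpo, myeloperoxidase, gave 7132, 1712 and 778. Values without it are given for the 8 genes where their sign or call differs, and for counts of gene lists where they move by over 1.5 times.

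**Figure D1:**
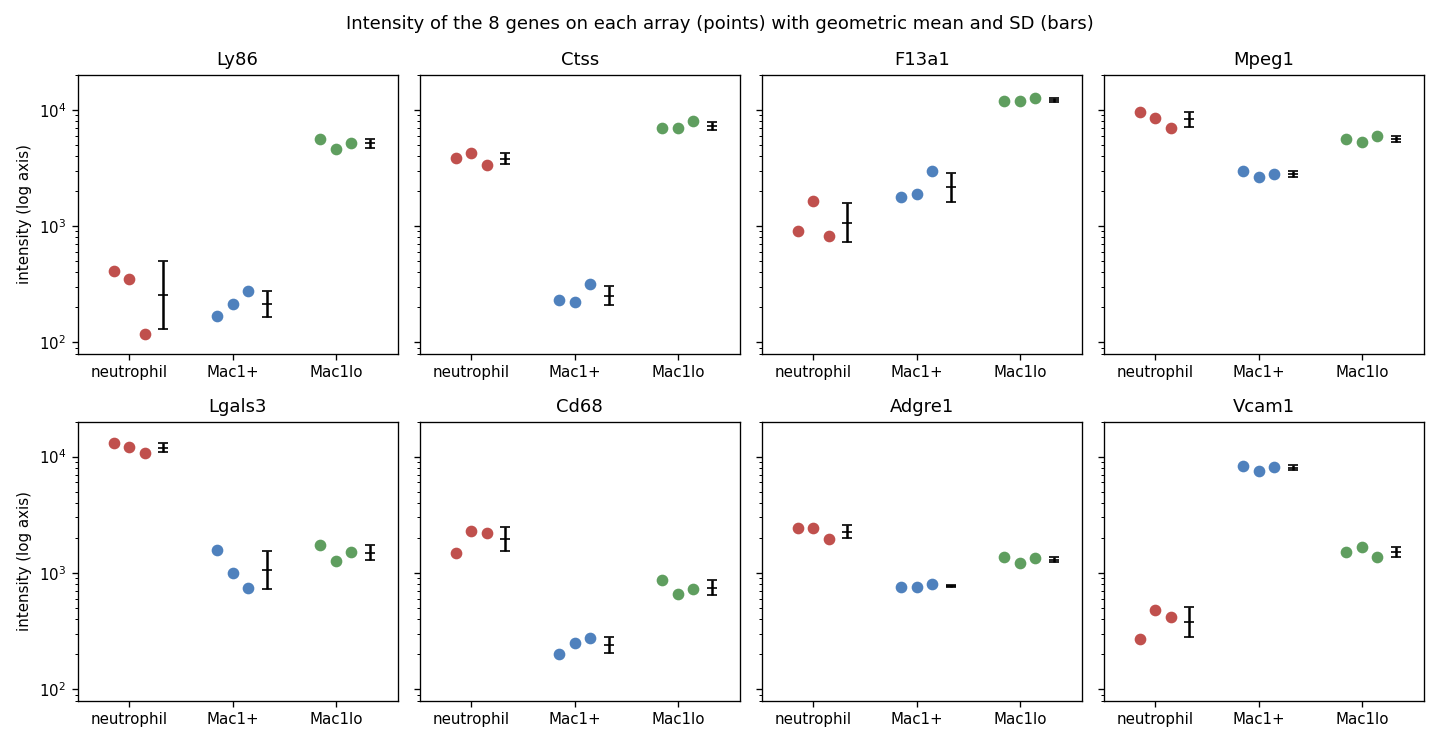
Intensity (log axis) of each of the 8 genes, with a panel per gene. Points are single arrays in the order 1, 2, 3 within neutrophils, Mac1+ cells and Mac1lo cells, and black bars are the geometric mean and SD of 3 arrays. Ly86, Ctss and F13a1 are highest in Mac1lo cells, Mpeg1, Lgals3, Cd68 and Adgre1 in neutrophils, and Vcam1 in Mac1+ cells.

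Ly86 encodes MD-1, a secreted protein that pairs with the Toll-like receptor homologue CD180. Its intensities were 413, 349 and 119 in neutrophils, 168, 213 and 278 in Mac1+ cells, and 5613, 4646 and 5222 in Mac1lo cells. Mac1lo arrays stood far above all others, while neutrophil and Mac1+ arrays overlapped. On the log2(intensity + 16) scale used for all levels and differences below, the means were 8.11 ± 0.90 in neutrophils, 7.85 ± 0.34 in Mac1+ cells and 12.33 ± 0.14 in Mac1lo cells (SD, n = 3 each). Neutrophils fell by 4.22 ± 0.40 (standard error) relative to Mac1lo cells, an 18.7-fold lower value (limma, adjusted p = 1.66e-05). Against Mac1+ cells the neutrophil difference was 0.26 ± 0.40, which did not pass the test (limma, adjusted p = 0.625). That difference was -0.060 without neutrophil array 1 (adjusted p = 0.912) and 0.77 without neutrophil array 3 (adjusted p = 0.0192), so single arrays set its sign and its call.

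Ctss encodes cathepsin S, a cysteine protease of lysosomes that trims the invariant chain of class II molecules. Its intensities were 3857, 4229 and 3365 in neutrophils, 231, 223 and 315 in Mac1+ cells, and 6918, 6962 and 7951 in Mac1lo cells. The 3 populations did not overlap, with Mac1+ cells far below both others. The means were 11.90 ± 0.17 in neutrophils, 8.07 ± 0.26 in Mac1+ cells and 12.83 ± 0.11 in Mac1lo cells. Neutrophils were 14.2-fold higher than Mac1+ cells (difference 3.83 ± 0.17, limma, adjusted p = 2.43e-07). They fell by 0.93 ± 0.17 relative to Mac1lo cells (adjusted p = 0.00151), a drop that came to 0.46 when arrays were centred on their medians and was still called (adjusted p = 0.0384). The neutrophil level was thus much nearer to that of Mac1lo cells than to that of Mac1+ cells.

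F13a1 encodes the A subunit of coagulation factor XIII, a transglutaminase that cross-links fibrin and is made by monocytes and megakaryocytes. Its intensities were 908, 1661 and 819 in neutrophils, 1764, 1886 and 2990.2 in Mac1+ cells, and 11954, 11983 and 12738 in Mac1lo cells. The populations did not overlap, but the highest neutrophil array lay close to the lowest Mac1+ array. The means were 10.09 ± 0.54 in neutrophils, 11.08 ± 0.41 in Mac1+ cells and 13.58 ± 0.05 in Mac1lo cells. Neutrophils fell by 3.49 ± 0.29 relative to Mac1lo cells, 11.2-fold lower (limma, adjusted p = 7.34e-06). Relative to Mac1+ cells they fell by 0.99 ± 0.29 (adjusted p = 0.0198). The second of these calls was lost with quantile normalization (adjusted p = 0.0683), with arrays centred on their medians (0.0719), without neutrophil array 3 (0.0597) and without Mac1+ array 3 (0.0733), each time with the same sign.

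Mpeg1 encodes perforin-2, a pore-forming protein of phagosomes. Its intensities were 9554, 8467 and 7027 in neutrophils, 2979.6, 2671 and 2802 in Mac1+ cells, and 5584, 5289 and 5964 in Mac1lo cells. All neutrophil arrays were above all Mac1lo arrays, and these above all Mac1+ arrays. The means were 13.02 ± 0.22 in neutrophils, 11.47 ± 0.08 in Mac1+ cells and 12.46 ± 0.09 in Mac1lo cells. Neutrophils rose by 1.55 ± 0.15 relative to Mac1+ cells (limma, adjusted p = 2.81e-05) and by 0.56 ± 0.15 relative to Mac1lo cells (adjusted p = 0.0126). Without Mac1lo array 2 the second difference was 0.52 and did not pass (adjusted p = 0.0514).

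Cd68 encodes a heavily glycosylated protein of lysosome membranes that is widely used to stain macrophages. Its intensities were 1489, 2279 and 2200.3 in neutrophils, 201, 248 and 275 in Mac1+ cells, and 870.3, 653 and 727 in Mac1lo cells. The 3 populations did not overlap and had the order neutrophils, Mac1lo cells, Mac1+ cells. The means were 10.94 ± 0.34 in neutrophils, 7.995 ± 0.22 in Mac1+ cells and 9.57 ± 0.20 in Mac1lo cells. Neutrophils were 7.72-fold higher than Mac1+ cells (difference 2.95 ± 0.21, limma, adjusted p = 3.41e-06) and 2.59-fold higher than Mac1lo cells (difference 1.37 ± 0.21, adjusted p = 0.000446).

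Adgre1 encodes the F4/80 antigen, an adhesion G-protein-coupled receptor and the classic surface marker of mouse macrophages. Its intensities were 2429.9, 2456 and 1940.2 in neutrophils, 763, 758 and 798 in Mac1+ cells, and 1358, 1221 and 1332 in Mac1lo cells. The order was that of Mpeg1 and Cd68, again with no overlap. The means were 11.15 ± 0.19 in neutrophils, 9.62 ± 0.04 in Mac1+ cells and 10.36 ± 0.08 in Mac1lo cells. Neutrophils rose by 1.53 ± 0.14 relative to Mac1+ cells (limma, adjusted p = 1.98e-05) and by 0.79 ± 0.14 relative to Mac1lo cells (adjusted p = 0.00129).

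Lgals3 encodes galectin-3, a lectin for beta-galactosides that is also known as the macrophage antigen Mac-2. Its intensities were 13029, 12035 and 10806 in neutrophils, 1565, 1009 and 748 in Mac1+ cells, and 1732, 1277 and 1513 in Mac1lo cells. Neutrophils stood far above both c-kit populations, whose arrays overlapped. The means were 13.54 ± 0.14 in neutrophils, 10.07 ± 0.53 in Mac1+ cells and 10.56 ± 0.22 in Mac1lo cells. Neutrophils were 11.1-fold higher than Mac1+ cells (difference 3.48 ± 0.26, limma, adjusted p = 4.23e-06) and 7.89-fold higher than Mac1lo cells (difference 2.98 ± 0.26, adjusted p = 9.25e-06).

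Vcam1 encodes an adhesion molecule of endothelium, stroma and some macrophages that binds the integrin alpha-4 beta-1. The probe set with the highest mean gave intensities of 271, 485 and 414 in neutrophils, 8243, 7552 and 8219 in Mac1+ cells, and 1506, 1669.9 and 1365 in Mac1lo cells. No populations overlapped, and Mac1+ cells were the highest. The means were 8.63 ± 0.42 in neutrophils, 12.97 ± 0.07 in Mac1+ cells and 10.57 ± 0.14 in Mac1lo cells. Neutrophils were 20.3-fold lower than Mac1+ cells (difference -4.34 ± 0.21, limma, adjusted p = 3.33e-07) and 3.85-fold lower than Mac1lo cells (difference -1.95 ± 0.21, adjusted p = 4.14e-05).

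Vcam1 was the gene among the 8 with more than 1 probe set, and its 3 probe sets gave the same order of populations. The second gave 43.2, 52.5 and 58.6 in neutrophils, 1316, 1251 and 1285 in Mac1+ cells, and 182, 155 and 172 in Mac1lo cells. The third gave 70.9, 65.0 and 81.6 in neutrophils, 391, 339 and 351 in Mac1+ cells, and 262, 251 and 247 in Mac1lo cells. None of these groups overlapped. In a fit of every probe set, the second and the third fell in neutrophils relative to Mac1+ cells by 4.28 ± 0.15 and 2.09 ± 0.14 (limma, adjusted p = 8.26e-08 and 2.95e-06). Relative to Mac1lo cells they fell by 1.47 ± 0.15 and 1.61 ± 0.14 (adjusted p = 3.06e-05 and 1.27e-05). The size of the Mac1+ minus Mac1lo difference depended on the probe set: it was 2.39 for the first, 2.81 for the second and 0.48 for the third.

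**Figure D2:**
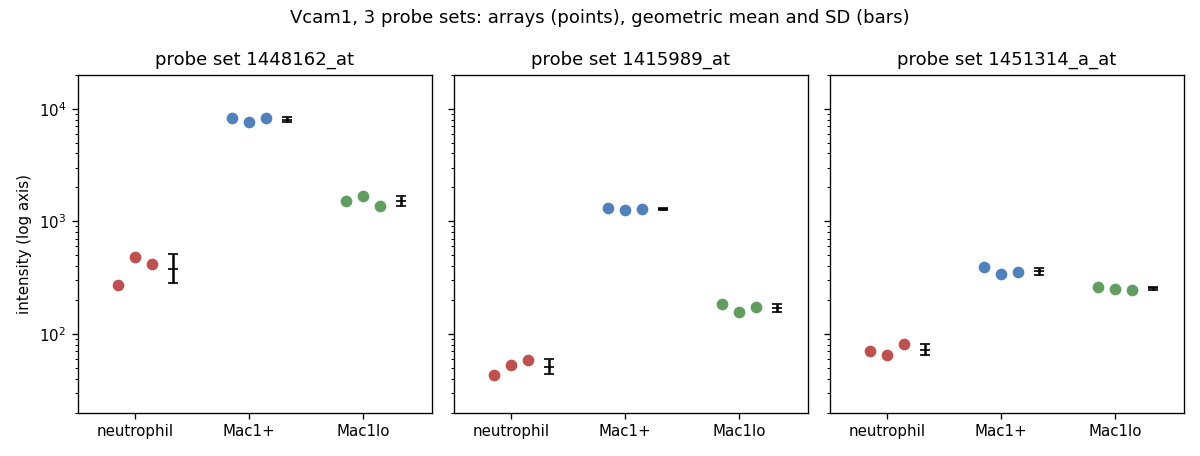
Intensity (log axis) of the 3 Vcam1 probe sets in neutrophils, Mac1+ cells and Mac1lo cells. Points are single arrays and black bars the geometric mean and SD of 3 arrays. Each probe set is highest in Mac1+ cells and lowest in neutrophils, and the step between Mac1+ and Mac1lo cells is smallest for the third.

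Of the 8 genes, 5 rose (Ctss, Mpeg1, Lgals3, Cd68 and Adgre1) and 2 fell (F13a1 and Vcam1) in neutrophils relative to Mac1+ cells. Over all genes tested, 19.7% were called higher and 28.4% lower, 48.1% in all. The median difference of the 8 was 1.54, against 0.05 over all genes. Relative to Mac1lo cells, 4 rose (Mpeg1, Lgals3, Cd68 and Adgre1) and 4 fell (Ly86, Ctss, F13a1 and Vcam1) in neutrophils, while 22.6% of all genes were called higher and 30.0% lower, 52.6% in all. Here the median of the 8 was -0.18, against 0.05 over all genes. The arrays did not overlap for 7 of the 8 in neutrophils against Mac1+ cells (all neutrophil arrays above for 5, below for 2) and for all 8 against Mac1lo cells (above for 4, below for 4). Over all genes these shares were 54.6% (23.8% above, 30.9% below) and 59.1% (26.5% above, 32.6% below). Each comparison shares either its Mac1+ or its Mac1lo arrays with the choice of the 8 genes. Without neutrophil array 1, every one of these calls and signs among the 15 called differences was the same, with F13a1 against Mac1+ cells nearest to the threshold (adjusted p = 0.0464).

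Between the c-kit populations, which had served to choose the genes, the Mac1+ minus Mac1lo differences were -4.76 for Ctss, -4.48 for Ly86, -2.50 for F13a1, -1.58 for Cd68, -0.99 for Mpeg1, -0.74 for Adgre1 and -0.49 for Lgals3, and 2.39 for Vcam1. Sorted from the lowest difference of 18193 genes, Ctss was number 7, Ly86 13, F13a1 120, Cd68 331, Mpeg1 757, Adgre1 1247 and Lgals3 2243. Vcam1 was number 103 from the highest. All Mac1+ arrays lay below all Mac1lo arrays for 6 genes and above them for 1, and Lgals3 overlapped. Over all genes, 20.1% lay below in this way and 19.8% above, 39.9% in all, and 11.8% were called. No test of the 8 genes is given for this comparison.

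**Figure D3:**
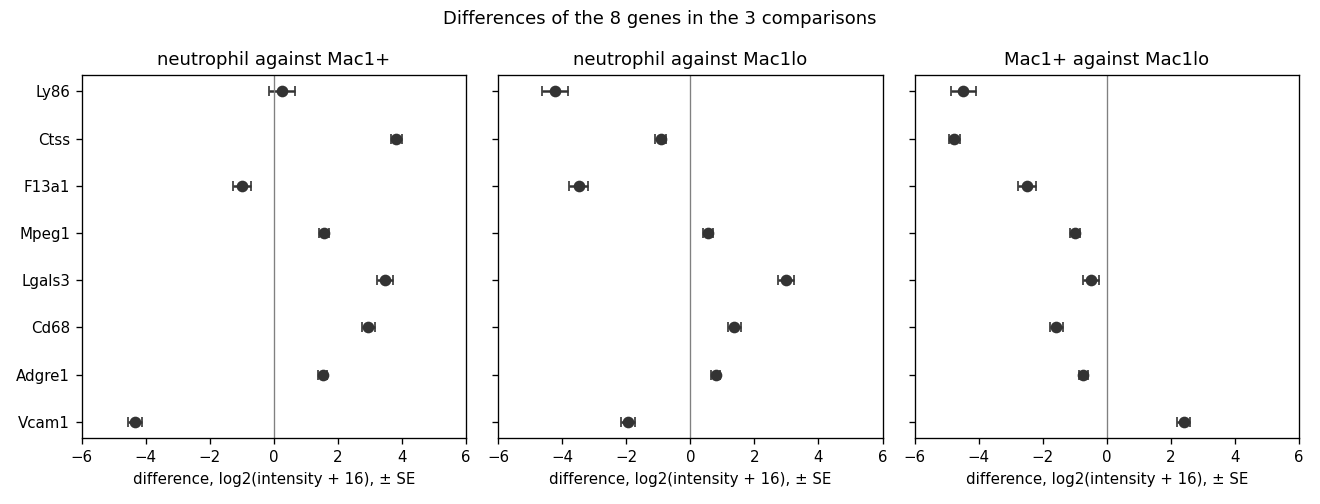
Differences of the 8 genes on the log2(intensity + 16) scale, first-named minus second-named population, with standard errors, in a panel per comparison. Positive values mean a higher level in the first-named population. Vcam1 is the gene with a positive value in Mac1+ against Mac1lo cells, at 2.39, and negative values in both neutrophil comparisons.

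How alike 2 genes were over the 9 arrays was measured as the root mean square of the difference between their centred log2 values, among 9096 genes with a mean above the median gene in their highest population. Mpeg1 and Adgre1 were close to each other, at 0.13, and shared a neighbour in Selplg, a selectin ligand of leukocytes, at 0.12 from each. The gene nearest to Adgre1 was Mitf, a transcription factor of osteoclasts and melanocytes, at 0.10, and Slpi, a protease inhibitor, stood at 0.13. Gm2a, the GM2 activator protein of lysosomes, stood at 0.14 from Mpeg1. For Ly86 the nearest were S100a10 (0.32), Itga1 (0.41) and Serpinf1 (0.42), and for F13a1 they were Ms4a6b (0.21), Cd99l2 (0.26) and Vav2 (0.29). Ctss had Ahnak (0.32), Fabp5 (0.46) and Csf1r (0.50) as neighbours. Lgals3 was nearest to Xdh (0.22), Cd74 (0.26) and 2310010J17Rik (0.29), and Cd68 to 5430427O19Rik (0.15), Bmpr2 (0.19) and Parp3 (0.20). Vcam1 was nearest to Tmem53 (0.24), Cdkn3 (0.30) and 1700020L24Rik (0.31), and its nearest gene among the 8, F13a1, stood at 2.06. Apart from Mpeg1 with Adgre1, no gene of the 8 had another among its 3 nearest.

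Other genes of the same pathways were described in 11 related lists, which leave out the 8 genes and hold 154 measured genes. Of these, 65 were called higher and 28 lower in neutrophils, set against Mac1+ cells (42.2% and 18.2%), with a median of 0.48. Over all genes the shares were 19.7% and 28.4%. Against Mac1lo cells, 63 of the 154 were called higher and 39 lower in neutrophils (40.9% and 25.3%), with a median of 0.32. The shares over all genes were 22.6% and 30.0%. In Mac1+ against Mac1lo cells 15 were called higher and 37 lower, with a median of -0.10, while over all genes 6.31% were called higher and 5.51% lower. Without neutrophil array 1, which is in neither of those populations but enters the shared estimate of spread, the number called higher was 26.

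Monocyte genes were the list with the most calls between the c-kit populations. Of 23 measured, 15 were lower and 3 higher in Mac1+ than in Mac1lo cells, with a median of -1.83. The 3 higher were Cybb, by 1.93 ± 0.16 (limma, adjusted p = 8.49e-05), Lyz2, by 1.05 ± 0.18 (adjusted p = 0.00478), and Sirpa, by 0.86 ± 0.14 (adjusted p = 0.00412). Irf8, a transcription factor needed for monocyte development, gave intensities of 432 to 1047 in Mac1+ cells and 12624 to 13516 in Mac1lo cells. Ms4a6c, a membrane protein gene of the Ms4a cluster, fell by 4.02 ± 0.25 in Mac1+ cells (limma, adjusted p = 1.48e-05), and Crip1, a small LIM-domain protein, by 2.55 ± 0.33 (adjusted p = 0.00108). Csf1r, which encodes the receptor of the growth factor M-CSF, gave 7112 to 12949 in neutrophils, 485 to 715 in Mac1+ cells and 8166 to 8797 in Mac1lo cells. Its neutrophil and Mac1lo arrays overlapped, both above all Mac1+ arrays. In neutrophils 14 of the 23 were higher and 1 lower than in Mac1+ cells, and 8 were higher and 7 lower than in Mac1lo cells. The iron transporter gene Slc11a1 rose by 5.81 ± 0.19 relative to Mac1+ cells (adjusted p = 5.02e-08) and by 5.78 ± 0.19 relative to Mac1lo cells (adjusted p = 3.45e-08), and the chemokine gene Ccl6 by 5.35 ± 0.14 and 4.05 ± 0.14 (adjusted p = 4.01e-08 and 5.18e-08). The list's summed intensity was 108064 to 117005 in neutrophils, 59889 to 65932 in Mac1+ cells and 89374 to 97620 in Mac1lo cells. Abundant genes that neutrophils also express carried much of it, such as the lysozyme gene Lyz2 (12494 to 16171 in neutrophils) and the oxidase gene Cybb (8691 to 10609). So did Csf1r and Tgfbi, with 9614 to 13879 in neutrophils for Tgfbi. Other members were far lower in neutrophils than in Mac1lo cells: Irf8 gave 309 to 623, Ms4a6c 191 to 381, Ccr2 294 to 572 and Cx3cr1 29.5 to 44.4 in neutrophils, against 12624 to 13516, 5631 to 6281, 2718 to 4074 and 214 to 238 in Mac1lo cells. Members also ran the other way: Tgfbi gave 2448 to 2797 in Mac1lo cells, and Cd14 gave 1092 to 1468 in neutrophils against 322 to 416 in Mac1lo cells. The part of other cells in the neutrophil values was not tested. The count of genes lower in neutrophils than in Mac1+ cells was 2 without neutrophil array 2 and without Mac1+ array 3.

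**Figure D4:**
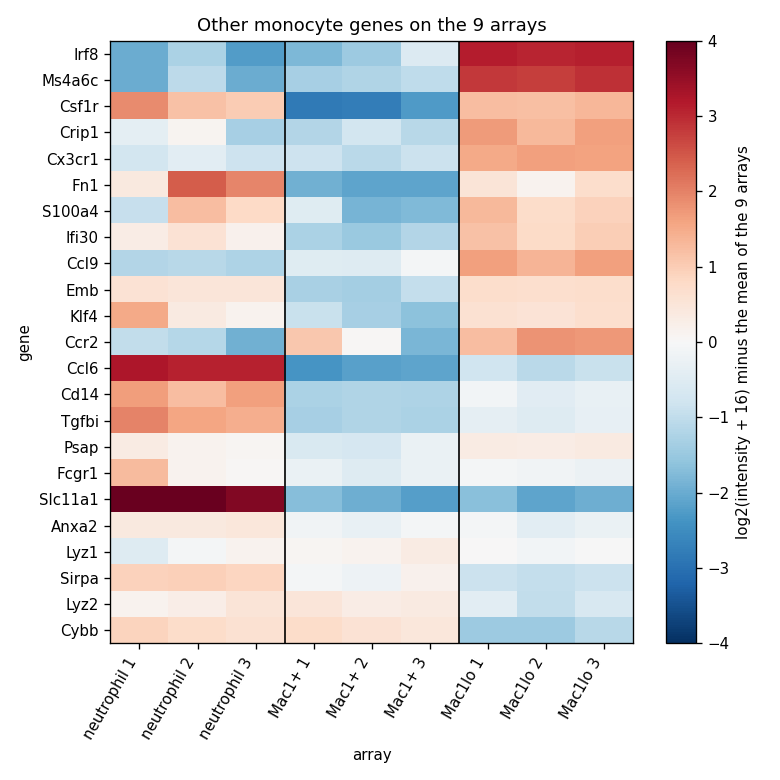
Levels of 23 other monocyte genes on the 9 arrays, as log2(intensity + 16) minus each gene's mean over the arrays (colour, from -4 to 4), with neutrophils, Mac1+ cells and Mac1lo cells from left to right and genes sorted by their Mac1lo minus Mac1+ difference. Irf8 and Ms4a6c, at the top, are high in Mac1lo cells alone, Csf1r is high in neutrophils and Mac1lo cells, and Slc11a1 and Ccl6 in neutrophils.

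Transcription factors of the monocyte and macrophage lineage moved in both directions. Of 19 measured, 11 were higher and 2 lower in neutrophils than in Mac1+ cells, 10 higher and 5 lower in neutrophils than in Mac1lo cells, and 2 higher and 5 lower in Mac1+ cells set against Mac1lo cells. The 2 higher genes were Cebpd, by 1.09 ± 0.18 (limma, adjusted p = 0.00437), and Spi1, the gene of PU.1, by 0.79 ± 0.19 (adjusted p = 0.0262). Spi1 gave 5387 to 8098 in neutrophils, 3536 to 4023 in Mac1+ cells and 1986 to 2499 in Mac1lo cells. The 2 higher genes became 1 without any 1 of the 3 Mac1+ arrays and without Mac1lo array 2 or 3. Irf5, a factor of Toll-like receptor signalling, fell by 2.85 ± 0.21 in Mac1+ relative to Mac1lo cells (limma, adjusted p = 3.81e-05). Zeb2, a transcriptional repressor active in myeloid cells, fell by 2.17 ± 0.20 (adjusted p = 0.000124), and Klf4, which promotes monocyte differentiation, by 1.89 ± 0.35 (adjusted p = 0.00769). Tfec, a relative of Mitf found in macrophages, gave 62.9 to 126 in neutrophils against 4866 to 6057 in Mac1+ cells and 5307 to 6205 in Mac1lo cells, and fell in neutrophils by 5.66 ± 0.22 and 5.78 ± 0.22 (adjusted p = 1.22e-07 and 6.66e-08).

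Tissue macrophage genes were called between the c-kit populations at a share near that of all genes. In Mac1+ relative to Mac1lo cells, 2 of 24 measured rose (8.33%), 1 fell (4.17%) and 21 did not pass. Over all genes, 6.31% were called higher and 5.51% lower. Without neutrophil array 1 the counts of the list were 5 and 2, and without Mac1+ array 1 the number that rose was 1. Slc40a1, the iron exporter ferroportin, was higher in Mac1+ cells by 2.74 ± 0.15 (limma, adjusted p = 6.78e-06), with intensities of 6476 to 7316 in Mac1+ cells and 957 to 1099 in Mac1lo cells. In Mac1lo cells 21 of the 24 gave intensities under 100 on all arrays, among them the complement gene C1qa at 4.34 to 16.9, C1qc at 12.4 to 26.7 and the sialoadhesin gene Siglec1 at 11.3 to 16.2. In Mac1+ cells 19 were under 100. In neutrophils 10 were higher and 2 lower than in Mac1+ cells, but the count of higher genes ranged from 5 to 15 over the alternatives and was 15 without neutrophil array 1. The count of lower genes was 1 without neutrophil array 1, Mac1+ array 2 or Mac1lo array 3, and 0 without Mac1+ array 1 or 3. Against Mac1lo cells 14 were higher and 1 lower, with a range of 9 to 19 for higher genes. Hmox1, haem oxygenase 1, rose in neutrophils by 3.05 ± 0.16 relative to Mac1+ cells and by 3.20 ± 0.16 relative to Mac1lo cells (adjusted p = 5.61e-07 and 3.05e-07). In neutrophils 12 of the list were under 100 on all arrays, C1qa and Siglec1 included. The rest exceeded 100 on at least 1 neutrophil array, among them C1qb at 107 to 657, C1qc at 28.7 to 185 and Apoe at 476 to 1216. The part of macrophages in these values was not tested.

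The partners of single genes among the 8 were also measured. Cd180, the receptor that pairs with the product of Ly86, gave 201, 71.5 and 41.8 in neutrophils, 52.6, 50.6 and 54.1 in Mac1+ cells, and 161, 173 and 169 in Mac1lo cells. No comparison of Cd180 passed the test, and its Mac1+ minus Mac1lo difference was -1.42 ± 0.40 (limma, adjusted p = 0.052). Its Mac1+ and Mac1lo arrays did not overlap, and the shared estimate of spread takes in its neutrophil arrays, which varied more. Of the 9 measured genes of the Ly86 partner and lipopolysaccharide receptor list, 5 were higher and 1 lower in neutrophils than in Mac1+ cells, 6 higher and 0 lower in neutrophils than in Mac1lo cells, and 2 higher and 3 lower in Mac1+ cells set against Mac1lo cells. Between the c-kit populations the number higher was 1 without Mac1+ array 1 or 3 or any 1 of the Mac1lo arrays, and against Mac1lo cells the number lower in neutrophils was 1 without any 1 of the neutrophil arrays. Ly96, whose product MD-2 is the counterpart of MD-1 for TLR4, gave 714 to 1556 in neutrophils, 23.0 to 28.4 in Mac1+ cells and 194 to 223 in Mac1lo cells. It rose in neutrophils relative to Mac1+ cells by 4.78 ± 0.26 (adjusted p = 6.67e-07) and relative to Mac1lo cells by 2.35 ± 0.26 (adjusted p = 5.04e-05), and it fell in Mac1+ relative to Mac1lo cells by 2.42 ± 0.26 (adjusted p = 0.000353). Tlr4 moved against it, 1.54 ± 0.22 higher in Mac1+ than in Mac1lo cells (adjusted p = 0.00212).

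Among 18 cathepsins and cathepsin inhibitors, 4 were lower and 0 higher in Mac1+ than in Mac1lo cells, with a range of 2 to 6 lower and 0 to 2 higher over the alternatives. The 4 became 2 without Mac1+ array 1 or 2 or Mac1lo array 1 or 3, and 2 were higher without neutrophil array 1. Ctsc, an activator of granule proteases, fell by 1.85 ± 0.24 (limma, adjusted p = 0.00109) and Ctsh, an aminopeptidase of lysosomes, by 1.10 ± 0.15 (adjusted p = 0.00145), both smaller than the difference of Ctss. In neutrophils 8 were higher and 4 lower than in Mac1+ cells, and 3 higher (5 without neutrophil array 1) and 5 lower than in Mac1lo cells. Cst7, an inhibitor of cathepsins, fell in neutrophils by 6.76 ± 0.46 relative to Mac1+ cells and by 6.32 ± 0.46 relative to Mac1lo cells (adjusted p = 2.56e-06 and 3.04e-06). Stfa3, a stefin, rose by 5.38 ± 0.18 and 5.93 ± 0.18 (adjusted p = 5.82e-08 and 2.75e-08).

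Class II presentation, the pathway that cathepsin S serves, had 4 of 10 measured genes lower and 0 higher in Mac1+ than in Mac1lo cells. H2-DMa, which helps to load peptides, fell by 2.27 ± 0.20 (limma, adjusted p = 0.000118) and Ifi30, a thiol reductase of lysosomes, by 2.28 ± 0.18 (adjusted p = 5.04e-05). Cd74, the invariant chain that cathepsin S trims, gave 447 to 745 in neutrophils, 23.9 to 34.5 in Mac1+ cells and 36.4 to 54.0 in Mac1lo cells. It rose in neutrophils by 3.70 ± 0.21 and 3.30 ± 0.21 relative to Mac1+ and Mac1lo cells (adjusted p = 8.67e-07 and 1.30e-06). In neutrophils 2 genes of the list were higher and 3 lower than in Mac1+ cells, and 1 was higher and 5 lower than in Mac1lo cells. Of 14 lysosome membrane and scavenger receptor genes, to which Cd68 belongs by location, 1 was lower and 0 higher in Mac1+ than in Mac1lo cells. The lower count was 4 without neutrophil array 1 and 0 without any other single array. In neutrophils 5 were higher and 4 lower than in Mac1+ cells, and likewise 5 higher and 4 lower than in Mac1lo cells. Scarb1, a receptor for high-density lipoprotein, gave differences of -3.62 ± 0.20 and -3.94 ± 0.20 in neutrophils (adjusted p = 7.48e-07 and 3.31e-07).

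The other galectins moved in both directions. The galectin list had 8 genes and counts Lgals3bp, which is not itself a galectin. Of these 8, 4 were higher and 2 lower in neutrophils than in Mac1+ cells, and 6 higher and 2 lower in neutrophils than in Mac1lo cells. The 2 lower genes were Lgals1 and Lgals3bp in both comparisons. Lgals1, galectin-1, gave 380 to 941 in neutrophils, 4555 to 6392 in Mac1+ cells and 15772 to 17253 in Mac1lo cells, and fell in neutrophils by 2.93 ± 0.32 and 4.54 ± 0.32 relative to these (limma, adjusted p = 5.91e-05 and 2.52e-06). Lgals4, known from gut epithelium, rose by 1.61 ± 0.16 and 2.68 ± 0.16 (adjusted p = 2.62e-05 and 7.68e-07). Lgals3bp, which encodes a secreted protein that binds galectin-3, fell in neutrophils by 2.03 ± 0.23 and 3.49 ± 0.23 (adjusted p = 7.94e-05 and 1.75e-06). Without neutrophil array 2 the number higher in neutrophils than in Mac1+ cells was 2. Between the c-kit populations 1 of the 8 was higher and 2 lower in Mac1+ cells, but 3 were higher without neutrophil array 1, and 1 was lower without Mac1+ array 1.

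The list around Vcam1 held 11 measured genes of its receptors, of other adhesion molecules and of linked proteins. Of these, 2 were higher and 4 lower in neutrophils than in Mac1+ cells, 3 higher and 6 lower in neutrophils than in Mac1lo cells, and 0 higher and 3 lower (Itgb7, Icam1 and Pecam1) in Mac1+ cells set against Mac1lo cells. The 2 became 1 without neutrophil array 1, Mac1+ array 1 or 2, or Mac1lo array 1 or 2, and the 3 higher than in Mac1lo cells became 1 without Mac1lo array 1 or 2. Without neutrophil array 1, 1 gene was higher in Mac1+ than in Mac1lo cells. Itga4, the alpha-4 integrin chain, gave 2658 to 3215 in neutrophils, 3168 to 4281 in Mac1+ cells and 2910.1 to 3255 in Mac1lo cells, and did not pass the test in any comparison (limma, adjusted p = 0.232, 0.816 and 0.607). Itgb7, the other beta chain that pairs with it, fell by 2.70 ± 0.29 in Mac1+ relative to Mac1lo cells (adjusted p = 0.000334), opposite in sign to Vcam1. It rose in neutrophils relative to Mac1+ cells by 3.56 ± 0.29 (adjusted p = 7.50e-06).

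Of 14 transglutaminase and clotting factor genes, 7 were higher and 2 lower in neutrophils than in Mac1+ cells, 6 higher and 3 lower in neutrophils than in Mac1lo cells, and 3 higher and 1 lower in Mac1+ cells set against Mac1lo cells. F5, coagulation factor V, gave 3156 to 3925 in neutrophils, 2289.6 to 2452 in Mac1+ cells and 234 to 292 in Mac1lo cells, and was higher in Mac1+ than in Mac1lo cells by 3.08 ± 0.15 (limma, adjusted p = 3.72e-06), opposite in sign to F13a1. Thbd, thrombomodulin, fell by 2.14 ± 0.23 in the same comparison (adjusted p = 0.000389). Tgm2, tissue transglutaminase, rose in neutrophils by 2.41 ± 0.28 and 2.52 ± 0.28 relative to Mac1+ and Mac1lo cells (adjusted p = 9.02e-05 and 5.44e-05). F13b, the gene of the B subunit that carries the F13a1 product in plasma, gave 15.8 or less on every array.

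Of 13 adhesion G-protein-coupled receptors other than Adgre1, 3 were higher and 3 lower in neutrophils than in Mac1+ cells, 5 higher and 3 lower in neutrophils than in Mac1lo cells, and 2 higher and 2 lower in Mac1+ cells set against Mac1lo cells. Without neutrophil array 1, 5 were lower in the last of these comparisons, and the 2 higher became 1 without Mac1+ array 1 or 3 or any 1 of the Mac1lo arrays. The 5 higher in neutrophils than in Mac1lo cells became 3 without Mac1+ array 2 or 3 or any 1 of the Mac1lo arrays. Adgre5, the leukocyte antigen CD97, gave 6183 to 7504 in neutrophils, 2604 to 3023 in Mac1+ cells and 644 to 775 in Mac1lo cells. It was higher in Mac1+ than in Mac1lo cells by 1.94 ± 0.15 (limma, adjusted p = 4.47e-05), whereas Adgre1 had a negative difference there. Adgrg1 fell by 2.07 ± 0.34 in Mac1+ relative to Mac1lo cells (adjusted p = 0.00428).

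**Figure D5:**
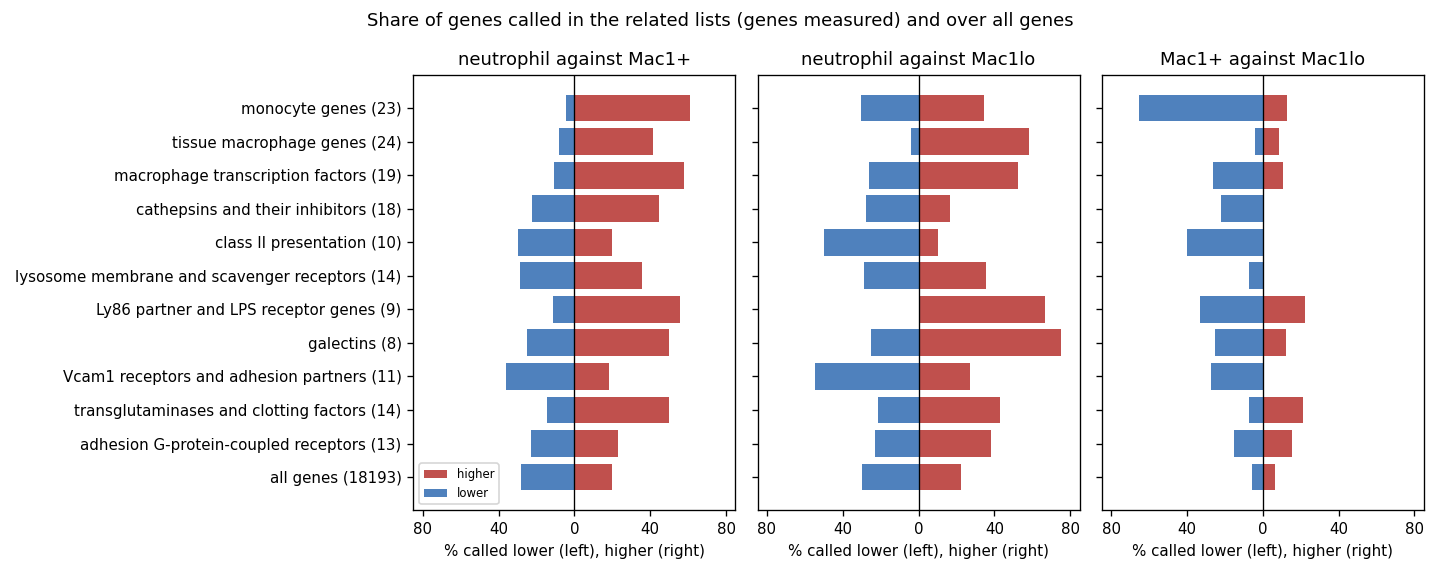
Share of measured genes called higher (red, to the right) and lower (blue, to the left) in the first-named population, in percent, for 11 related lists and all genes, with a panel per comparison. Numbers in brackets are genes measured. In Mac1+ against Mac1lo cells monocyte genes have the longest bar to the left, 15 of 23 genes, while 5.51% of all genes are called lower.

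Markers of other cells that a gate could hold were summed per array. Neutrophil lineage genes gave 143297 to 161902 in neutrophils, 173581 to 198174 in Mac1+ cells and 79353 to 91124 in Mac1lo cells. The lower sum of Mac1lo cells came from later granule genes such as Ltf, lactoferrin, with 10425 to 14481 in neutrophils, 12789 to 14085 in Mac1+ cells and 65.9 to 178 in Mac1lo cells. The early granule gene Elane was as bright in Mac1lo cells (14403 to 16230) as in Mac1+ cells (15119 to 17815), against 208 to 2199 in neutrophils. Of 11 dendritic cell genes, 8 in neutrophils, 11 in Mac1+ cells and 10 in Mac1lo cells were under 100 on all arrays, and their sums were 1407 to 1680.4 in neutrophils, 236 to 338 in Mac1+ cells and 364 to 409.9 in Mac1lo cells. Most of the neutrophil sum was Itgax, with 1126 to 1285 in neutrophils, 14.4 to 35.95 in Mac1+ cells and 13.9 to 24.4 in Mac1lo cells. Zbtb46 and Siglech exceeded 100 on neutrophil array 1, at 234 and 142. The part of dendritic cells in these values was not tested. Megakaryocyte and platelet genes, which can accompany F13a1, summed to 2662 to 2835 in neutrophils, 956 to 1077 in Mac1+ cells and 709.8 to 805 in Mac1lo cells. Most of this sum was Itgb3, the beta-3 integrin chain, with 2008 to 2038 in neutrophils, 584 to 651 in Mac1+ cells and 384 to 408 in Mac1lo cells. Other members ran differently: Pf4, platelet factor 4, gave 28.4 to 51.5 in neutrophils, 10.6 to 59.0 in Mac1+ cells and 43.3 to 124 in Mac1lo cells, and Itga2b gave 153 to 314, 72.7 to 101 and 125 to 147 in the same order. Ppbp, a platelet chemokine gene, was under 100 on every array. The part of megakaryocytes and platelets in F13a1 was not tested. Stromal and endothelial genes, which can accompany Vcam1, summed to 312 to 839.9 in neutrophils, 251 to 319.99 in Mac1+ cells and 467 to 479.9 in Mac1lo cells, with all 10 under 100 in Mac1+ cells. The part of stromal and endothelial cells in Vcam1 was not tested. Within the B cell list Ebf1 varied between Mac1+ arrays (11772, 8838 and 1898), and Cd79b gave 551 to 747 in Mac1+ cells and 934 to 1176 in Mac1lo cells. Igll1 gave 615 to 674 in Mac1+ cells and 694 to 775 in Mac1lo cells, while the other 4 measured, Cd79a, Ms4a1, Pax5 and Vpreb1, were under 100 in both. The part of B-lineage cells in the 8 genes was not tested. The monocyte receptor gene Ccr2 also varied between Mac1+ arrays (2426, 1183 and 309.9). Mac1+ array 3, the lowest of the 3 in both genes, was also the lowest in Lgals3 and the highest in Ly86, Ctss, F13a1 and Cd68, and the part of other cells in this was not tested.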

How the data were processed

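The authors deposited 1 table of linear intensity values, 45101 probe sets by 9 arrays, with columns matched to samples by title. The method of summarising and scaling them was not given in the sources used here. Per the labels' protocols, RNA was amplified in a two-cycle protocol. Intensities per array had medians of 39.1 to 61.8, and 36.4% to 41.1% exceeded 100. Genes were assigned from the platform annotation (34945 with 1 gene, 932 with several, 9160 with none, 64 controls). The probe set with the highest mean over 9 arrays was kept for each of 18193 genes. Values were not rescaled. All 3 populations entered 1 limma fit (limma 3.58.1, R 4.3.3) of log2(intensity + 16), which understates differences of dim genes. A gene was called at an adjusted p under 0.05, by the Benjamini-Hochberg method over all genes. The fit was also run on simulated data with independent noise and few changed genes. Far more genes were called in these data, so that run does not measure error rates here. No 2 arrays held identical values. Replicate numbers were not taken as pairs in the main fit. Of 9 correlations of deviations between same-numbered arrays, 1 exceeded 0.1 (range -0.31 to 0.13). Such correlations cannot show whether same-numbered arrays shared animals or preparations.

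The 8 genes, related lists and tests were chosen with earlier results of these data known. The text names the 8 genes, the 3 nearest genes of each, and up to 4 called genes of largest difference per list and comparison. The marker genes in the closing paragraph and Cd180, Itga4, F13b, C1qa, C1qb, C1qc, Siglec1, Lyz2, Cybb, Cx3cr1, Ccr2, Tgfbi and Cd14 were singled out after their values were seen. So were Sirpa, Spi1, Cebpd, H2-Aa, H2-Ab1 and H2-Eb1. Of 154 related genes measured, none is one of the 8. Alternatives tried were a block for replicate number, quantile normalization, arrays centred on their medians, an offset of 1 or 64, dropping genes below the 40th percentile of mean level, the mean of probe sets, leaving out probe sets with suffix s or x, and leaving out each array.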

Additional observations from a re-analysis of the deposited data

How the results depend on the processing

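Over 17 alternatives no rescaling, offset or filter changed the direction of any of the 8 genes. Ly86 in neutrophils against Mac1+ cells had a difference of -0.060 without neutrophil array 1 and 0.77 without neutrophil array 3. Mpeg1 in neutrophils against Mac1lo cells had 0.52 without Mac1lo array 2. The number of the 8 genes called lower in neutrophils than in Mac1+ cells was 2 and came to 1 with quantile normalization, with arrays centred on their medians, and without neutrophil array 3 or Mac1+ array 3, through F13a1. Leaving out each array in turn gave 1 to 2 there and 5 to 6 called higher, and 3 to 4 higher and 4 lower in neutrophils than in Mac1lo cells. A replicate block changed no call among the 8 genes (5 higher and 2 lower in neutrophils than in Mac1+ cells, 4 and 4 against Mac1lo cells). Centring arrays moved the median of all genes by 0.28, 0.47 and 0.19 in neutrophils against Mac1+, neutrophils against Mac1lo and Mac1+ against Mac1lo cells. It called 6131, 8147 and 1724 genes higher, against 3591, 4109 and 1148, so that 59.0%, 65.8% and 70.8% of calls were higher, against 41.0%, 42.9% and 53.4%. Leaving out dim genes moved the first and second medians by -0.46 each. Between the c-kit populations, leaving out single arrays gave 710 to 2191 genes higher and 599 to 1987 lower, against 1148 and 1003, and 11 to 26 higher and 31 to 46 lower in the related lists. Counts of short lists moved by more than 1.5 times. Genes higher in neutrophils than in Mac1+ cells ranged from 2 to 6 for the galectin list, 2 to 7 for lysosome membrane genes and 1 to 5 for adhesion receptors. Genes higher in neutrophils than in Mac1lo cells ranged from 3 to 10 for cathepsins and 1 to 5 for Vcam1 receptors and other adhesion genes. Lysosome membrane genes lower in Mac1+ than in Mac1lo cells ranged from 0 to 4. The highest all-gene counts between the c-kit populations came without neutrophil array 1, and the other causes were not tested. Dim probe sets, such as those of Cd180, limit what the intensities resolve.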
